A study of Homo sapiens with 4 samples.

Results

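The comparison described here is the polysomal RNA of RBM35A- cells against the total RNA of RBM35A- cells. It was read as the baseline loading of messenger RNAs onto polysomes in LS180, an established human colon carcinoma line. A gene entered when its probe set reached a log2 value of 5 on at least 1 of the 2 arrays, and this left 3541 of the 8225 genes that the array names singly. RBM35A, now called ESRP1, is an epithelial RNA-binding protein known for its control of splicing, and in this Tet-off system doxycycline keeps it switched off. The RBM35A- cells, called parental in the labels, were kept with doxycycline, and no label states if the RBM35A construct was in them. The other state, RBM35A+, was Tet-off LS180 cells left without doxycycline for at least 6 days. Total RNA was extracted with TRIZOL. Polysomal RNA was pooled from sucrose gradient fractions of detergent lysates, from plates washed with cycloheximide, after nuclei had been spun out, so the fractions differ in extraction and in nuclear RNA as well as in ribosome loading, and these cannot be told apart. By the labels the hybridized molecule was polyA RNA in the polysomal samples and total RNA in the rest, with no selection step described. Each combination of state and fraction was hybridized to 1 Affymetrix HG-U95Av2 array, so no difference below has a replicate or a p-value.

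A polysome is a messenger RNA carrying a train of ribosomes, and the share of a transcript found there depends on how often initiation occurs and on how much of the transcript is held in untranslated particles, in stored form or in the nucleus. The best known class under translational control is the TOP transcripts, which encode ribosomal proteins and elongation factors and start with a C followed by an unbroken run of pyrimidines, through which the mTOR pathway and LARP1 act on their loading. In dividing cells with nutrients these transcripts are largely on polysomes. Array values here are log2 values whose fractions had been normalized apart, so a gene is described by its relative difference, which is polysomal minus total RNA less the median over the 3541 genes (0.104).

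The starts of 5 TOP transcripts and of the 3 glycolytic transcripts with the lowest relative differences are printed to show this sequence class. Each line holds 10 bases before and 20 bases from the annotated RefSeq start (GRCh38.p14), on the transcript's strand, and the capitals mark the first 5 transcribed bases.
RPLP1, chr15:69452808-69452837, plus strand: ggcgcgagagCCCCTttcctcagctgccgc
RPS9, chr19:54200848-54200877, plus strand: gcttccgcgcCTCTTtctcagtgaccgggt
RPS21, chr20:62387093-62387122, plus strand: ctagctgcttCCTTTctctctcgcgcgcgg
EEF1A1, chr6:73521013-73521042, minus strand: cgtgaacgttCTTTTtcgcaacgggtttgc
EEF2, chr19:3985444-3985473, minus strand: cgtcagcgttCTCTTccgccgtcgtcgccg
ALDOC, chr17:28576876-28576905, minus strand: ccgcagcctcATTTAccagagggagccagg
ALDOA, chr16:30064269-30064298, plus strand: tactctccttCTTAAaaaaaaccagggctc
GPI, chr19:34364982-34365011, plus strand: acttccgggcAGAGGccagcaaagcggcgg
The TOP starts read C and then only C or T, and the glycolytic starts do not. A C followed by 4 pyrimidines (each C or T, on the transcript's strand only) stood at the annotated start of 4.04% of the 27305 starts in the table and of 203 of the 2994 analysed genes found there (6.78%). It stood at the start of 28 of 42 ribosomal protein genes and of 11 of 11 genes of a list of other TOP transcripts. An annotated start can lie some bases from the real one, and a match is a description of the letters alone.

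Of 12626 probe sets, 34.2% reached 5 in polysomal and 33.8% in total RNA. Epithelial and gut markers were present, with 15 of 16 at 5 or more in both fractions (all but KRT20). Of 14 haematopoietic markers only HBB, and of 15 fibroblast and endothelial markers only COL1A1 in polysomal RNA, reached 5. No probe set was annotated to RBM35A, so the arrays do not show the state of the cells. The 7 probe sets at 5 or more for bacterial and phage transcripts added as controls differed by -0.22 to 0.38 between the fractions.

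The fractions differed in what the control probe sets along transcripts read. Beta-actin was at 13.95 in polysomal and 14.25 in total RNA by its 3′ probe set, but at 10.29 and 14.79 by its 5′ probe set, a difference of -4.51. GAPDH differed by -0.16 at the 3′ end, by -1.21 in the middle and by -1.83 at the 5′ end. The same order was seen in RBM35A+ cells, with -5.32 and -2.59 at the 5′ ends of beta-actin and GAPDH. The 5′ signal of beta-actin and GAPDH was thus lower in polysomal RNA while the 3′ signal was nearly level. The transferrin receptor controls cannot show if it had this pattern, since each of their polysomal values was under 5. They differed by -3.92 at the 3′ end, -4.74 in the middle and -3.69 at the 5′ end. The probe set for Alu repeats, which lie in many introns and transcript ends, was at 15.79 in polysomal and 14.64 in total RNA. For beta-actin and GAPDH the difference varied with the place of the probes, and the part of this in the gene results below was not tested.

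**Figure D1:**
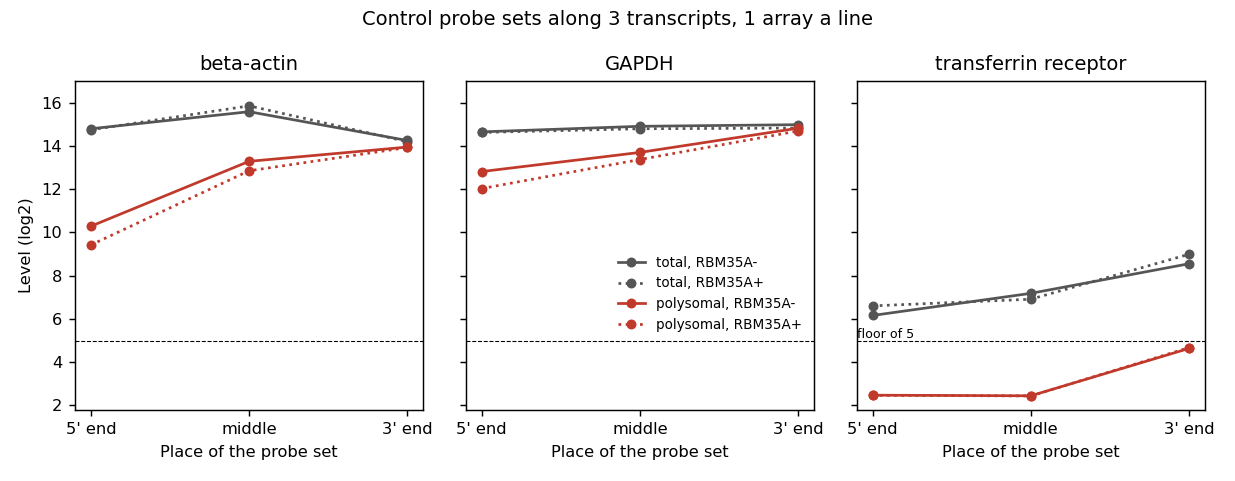
Log2 level of control probe sets at the 5′ end, middle and 3′ end of beta-actin, GAPDH and the transferrin receptor, with 1 line for each of the 4 arrays and a dashed line at the floor of 5. For beta-actin and GAPDH the polysomal lines meet the total RNA lines at the 3′ end and lie below them at the 5′ end (10.29 against 14.79 for beta-actin in RBM35A- cells), and the transferrin receptor is under 5 in polysomal RNA at all 3 places.

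Most transcripts had much the same relative level in both fractions. Within 2-fold of the median lay 78.1% of the 3541 genes, and the quartiles of the relative difference were -0.47 and 0.52. At 2-fold or more, 425 genes were higher in polysomal RNA (12%) and 351 were lower (9.91%). At 4-fold these counts were 81 and 40. The spread has to be read against the error of a single probe set: among 353 genes with at least 2 measured probe sets, the estimated SD for a single probe set came to 0.712, so a difference of 1 on its own is close to what 2 probe sets of the same transcript differ by. Values under 5 were raised to 5, and a difference with a value at this floor is a bound. In all, 289 genes were at the floor in total RNA and 192 in polysomal RNA. Among them were 77 of the higher genes, at the floor in total RNA, and 61 of the lower genes, at the floor in polysomal RNA. The rest of these genes were counted within 2-fold, though their differences can be larger.

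**Figure D2:**
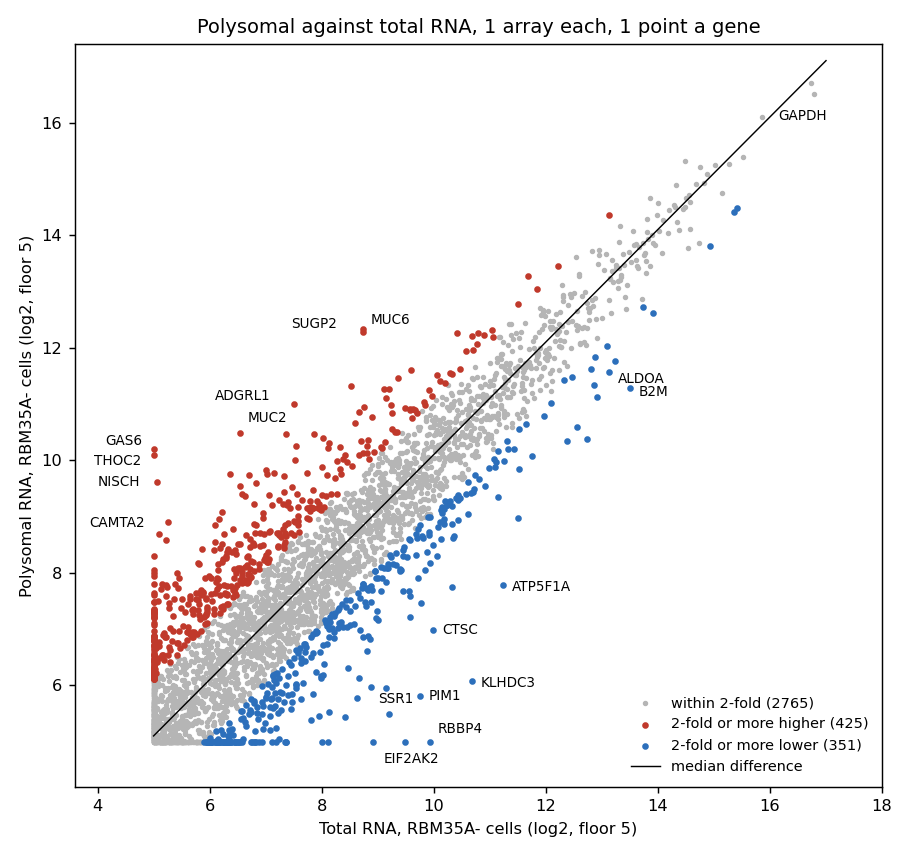
Log2 level in polysomal against total RNA of RBM35A- cells for the 3541 genes, 1 point a gene, with the line at the median difference. The 425 genes at 2-fold or more above the line are red and the 351 at 2-fold or more below it are blue, and points on the left and lower edges are at the floor of 5.

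The gene with the highest difference measured on both arrays was NISCH, which encodes nischarin, an integrin-binding regulator of cell migration. NISCH stood at 9.61 in polysomal and 5.06 in total RNA, a relative difference of 4.45 or 21.8-fold. Among the 12 highest were also a pair of gel-forming mucins. MUC2, the chief gel former of goblet cell mucus, was at 10.49 and 6.54, a relative difference of 3.84. MUC6, a mucin typical of gastric glands, was at 12.33 and 8.74, a relative difference of 3.49. In RBM35A+ cells the mucins were also higher in polysomal RNA, by 2.33 for MUC2 and 2.44 for MUC6.

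Other genes among the 12 highest were CAMTA2 (3.54), a calmodulin-binding transcription activator, and SUGP2 (3.45), a protein of the splicing machinery. ADGRL1 (3.40) is an adhesion receptor, ADCY6 (3.30) an adenylyl cyclase and SLC4A7 (3.26) a bicarbonate cotransporter. CDS1 (3.01) makes CDP-diacylglycerol, and AKAP17A (2.94) and RBM5 (2.90) act in splicing. All 12 lay on the same side in RBM35A+ cells, from 2.33 to 3.88. There the values of CAMTA2 (3.88) and MCF2L, also among the 12, are bounds, with total RNA at the floor. Only 3 of them had another measured probe set: that of RBM5 gave 2.54, that of CDS1 gave 1.42 and that of AKAP17A gave 0.09, so the last rests on 1 of its probe sets.

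A further 8 genes were chosen for the highest bounds, with total RNA at the floor. GAS6, a secreted ligand of the TAM receptor kinases, was at 10.20 in polysomal RNA, at least 34.3-fold higher, and its other probe sets, measured on both arrays, gave 1.83 and 2.50. THOC2, a subunit of the THO complex of mRNA export, was at 10.10, at least 5.00 higher on the relative scale, but its other probe set gave 0.78. N4BP2L2, CLK2, MZF1, MAPK8IP3, NKTR and RECQL4 had bounds of 2.54 to 3.19. CLK2 is a kinase of splicing factors, MZF1 a zinc finger transcription factor, MAPK8IP3 a scaffold of the JNK pathway and RECQL4 a DNA helicase.

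On the lower side KLHDC3, a substrate receptor of a ubiquitin ligase, stood at 6.07 in polysomal and 10.68 in total RNA, a relative difference of -4.71 or 26.2-fold. PIM1, a short-lived serine/threonine kinase whose messenger has a structured leader, was at 5.81 and 9.75. Its relative difference was -4.04, and that of its other probe set -1.89. SSR1, a subunit of the translocon-associated complex of the endoplasmic reticulum, was at 5.49 and 9.20, a relative difference of -3.82, with -2.03 by its other probe set. ATP5F1A, the alpha subunit of mitochondrial ATP synthase, was at 7.78 and 11.24, a relative difference of -3.56.

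The remaining 8 of the 12 lowest ran from -3.30 to -2.64. They were CCNG1, a cyclin induced by p53, CTSC, a lysosomal protease, MISP, an actin-binding protein of the spindle, PSMD5, a proteasome assembly chaperone, TFDP2 and E2F4, partners in cell cycle transcription, ALDH1B1, a mitochondrial aldehyde dehydrogenase, and ATP6V0D1, a subunit of the vacuolar proton pump. E2F4 had a further probe set, at 0.08. All 12 were also lower in RBM35A+ cells, from -5.38 to -2.42. There the values of KLHDC3 (-5.38) and MISP are bounds, with polysomal RNA at the floor.

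The 8 lowest bounds had polysomal RNA at the floor. RBBP4, a histone-binding protein of chromatin complexes, was at 9.94 in total RNA, a bound of -5.04, while its other probe set was at the floor in polysomal RNA and at 5.12 in total RNA, a bound of -0.23, which does not conflict with the first. EIF2AK2, the RNA-activated kinase PKR, had a bound of -4.59 by a probe set that may share sequence with other genes and -0.41 by another measured on both arrays. ITM2B, an integral membrane protein, was at 8.91 in total RNA, a bound of -4.01. ANXA2 and LMNB1, which encode annexin A2 and lamin B1, were at 8.12 and 8.01, with bounds of -3.22 and -3.12. RNGTT, ASCL2 and RRM2 had bounds close to -2.46. RNGTT is the mRNA capping enzyme, ASCL2 a transcription factor of intestinal stem cells and RRM2 the small subunit of ribonucleotide reductase.

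**Figure D3:**
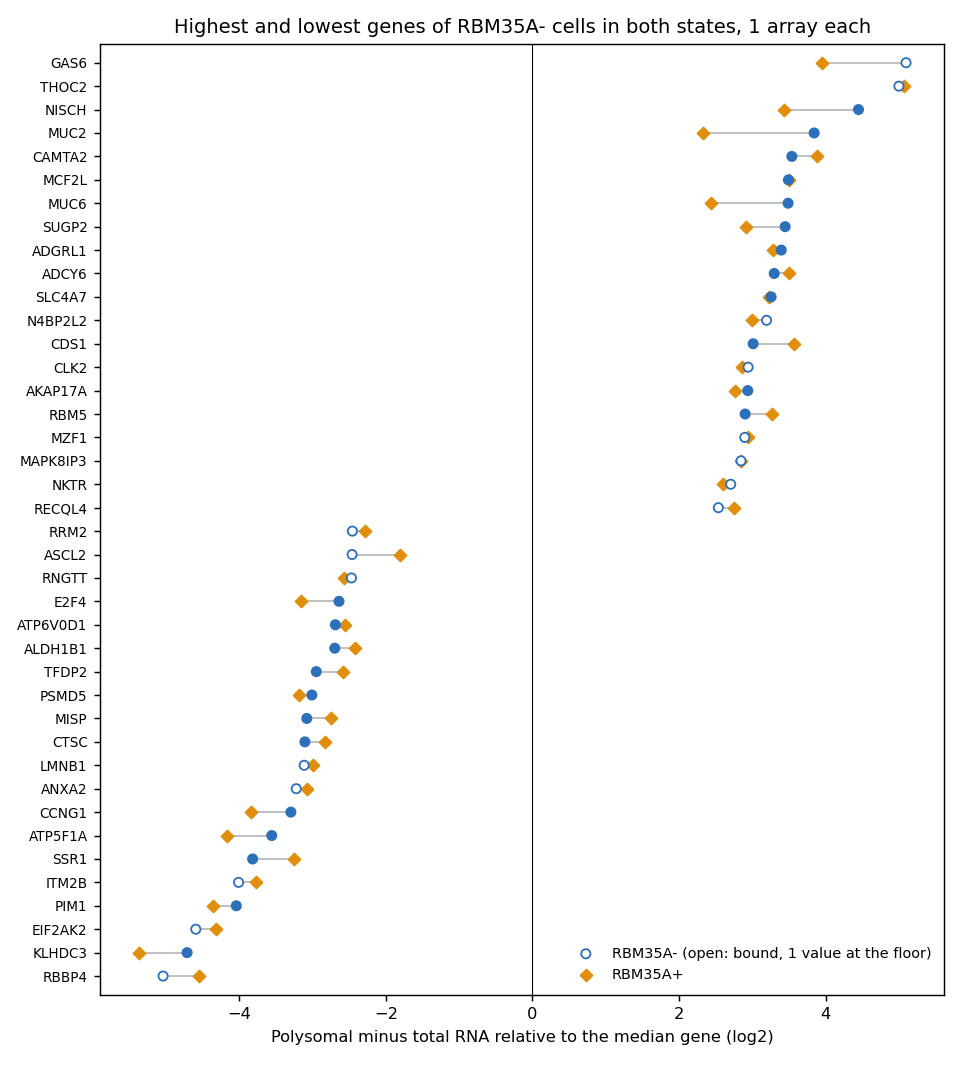
Relative difference, polysomal minus total RNA, for the 12 highest and 12 lowest genes and the 8 highest and 8 lowest bounds of RBM35A- cells (circles, open where 1 value is at the floor) and for the same genes in RBM35A+ cells (diamonds), 1 array for each value. Every gene shown lies on the same side of 0 in both states. MUC2, MUC6, NISCH and GAS6 are among those further from 0 in RBM35A- cells, as are SUGP2 and SSR1. For ASCL2 and RBBP4 polysomal RNA was at the floor in both states, so which state lies further from 0 is not known. Diamonds do not mark a value at the floor. Others, such as KLHDC3 and PIM1, are further from 0 in RBM35A+ cells.

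The RBM35A+ arrays show how far the same difference was seen in the other state. They are no replicate, since the cells differ in RBM35A and doxycycline and each fraction had been normalized across the states. Of the 425 higher genes 358 were also 2-fold higher there (84.2%, and 81.0% of the 442, or 12.5% of all genes, that were higher in that state), and of the 351 lower genes 269 were also 2-fold lower (76.6%, and 80.3% of the 335, or 9.46%, that were lower). No gene of either group changed side. Across genes, which are not independent and share arrays and probes, the relative differences of the states correlated at r = 0.956. Their differences between states had an SD of 0.267. That SD compares readings by the same probe set, so it is not a like measure to the 0.712 between probe sets.

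Other probe sets of the same genes agreed less. Of the higher genes 71 had another measured probe set, which lay on the same side of the median in 57 and was 2-fold higher in 25, with 3 that were 2-fold lower. Of the lower genes 67 had another measured probe set, on the same side in 60, 2-fold lower in 23 and 2-fold higher in 1. The relative difference of most genes named here rests on 1 probe set.

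The gene lists below are read against all genes analysed, of which 12% were 2-fold higher and 9.91% lower. Ribosomal proteins were on polysomes at the level of the median gene, with little spread. The 47 analysed of 48 on the array had a median of -0.0032, none was 2-fold higher or lower, and 46 lay within 1.5-fold. Their SD was 0.23, while all genes in the highest quintile of level, where all 47 lie, had an SD of 0.71. That quintile is not matched to them on level: it runs from 9.68 to 16.72, and the list median level was 13.33. RPLP1, an acidic protein of the ribosomal stalk, was at 16.71 in polysomal and 16.73 in total RNA, and RPS9 at 15.28 and 15.27. The polysomal value of RPLP1 was the highest on that array. What part such high levels have in the small spread was not tested. The highest were RPS28 (0.49), RPS21 (0.46) and RPL35 (0.27), and the lowest RPL22 (-0.84), RPL14 (-0.49) and RPL38 (-0.44). RPL22 was at 10.66 and 11.40, and -0.48 by its other probe set. Probe sets of ribosomal proteins can also read processed pseudogenes.

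The 17 other TOP transcripts had a median of -0.10, a wider SD of 0.58, and 1 gene at 2-fold. EEF1A1 and EEF2, the elongation factors printed above, had relative differences of -0.22 and 0.19. The lowest were PABPC1 (-0.78, and -0.13 by its other probe set), the poly(A)-binding protein, EIF3F (-0.77) and EIF4B (-0.44). The gene at 2-fold was HNRNPA1, a splicing repressor, at 10.23 in polysomal and 8.33 in total RNA, a relative difference of 1.79. Among all 203 analysed genes with a C and 4 pyrimidines at the annotated start, 16 were 2-fold higher and 10 lower, with an SD of 0.65 against 0.91 for the other genes found in the table. Within the highest quintile of level the SD was 0.47 for 82 such genes and 0.72 for 522 others. Without the ribosomal and other listed TOP genes, 164 genes with such a start had an SD of 0.71. Such a start stood at 4.52% of the 2-fold higher genes, 3.34% of the lower ones and 7.56% of those within 2-fold. These shares include the ribosomal and other listed TOP genes. Among the 164 genes left without them, 9.76% were 2-fold higher and 6.1% lower, against 12.1% and 10.4% of genes with other starts.

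Translation factors outside the TOP class lay lower. Of 30, 22 were below the median of all genes, 7 were 2-fold lower (23.3%) and 1 higher (3.33%), with a list median of -0.41. EIF4EBP1, a repressor that binds the cap-binding factor and is phosphorylated by mTOR, was at 7.47 in polysomal and 9.77 in total RNA (-2.41). EIF2S3 and EIF2S1, subunits of the factor that brings the initiator tRNA, had -2.14 and -1.59, and the other probe set of EIF2S3 gave -2.16. EIF5B, which joins the ribosomal subunits, was the gene at 2-fold higher, with 1.01. The 18 aminoacyl-tRNA synthetases were centred on the median (-0.03), and ran from a bound of -1.40 to 1.56 for HARS2, the mitochondrial histidyl enzyme.

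Glycolysis and the pentose phosphate pathway lay below the median almost throughout. Of 18 genes 17 were below, 5 were 2-fold lower (27.8%, against 9.91% of all genes) and none was 2-fold higher, with a list median of -0.61 and -0.66 in RBM35A+ cells. The aldolases were lowest: ALDOC was at 8.29 in polysomal and 10.06 in total RNA (-1.88), and ALDOA at 11.57 and 13.13 (-1.67). GPI, which interconverts glucose and fructose phosphates, was at 12.61 and 13.91 (-1.40). GAPDH was at 16.51 and 16.79, a relative difference of -0.39, by the probe set of the gene, and the control probe sets of the same transcript spanned -0.16 to -1.83 before centring. At the other end PFKP and PFKL, subunits of phosphofructokinase, had 0.16 and -0.06, and PGD of the pentose phosphate pathway -0.01. Where the probes of each enzyme lie along its transcript was not analysed here.

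**Figure D4:**
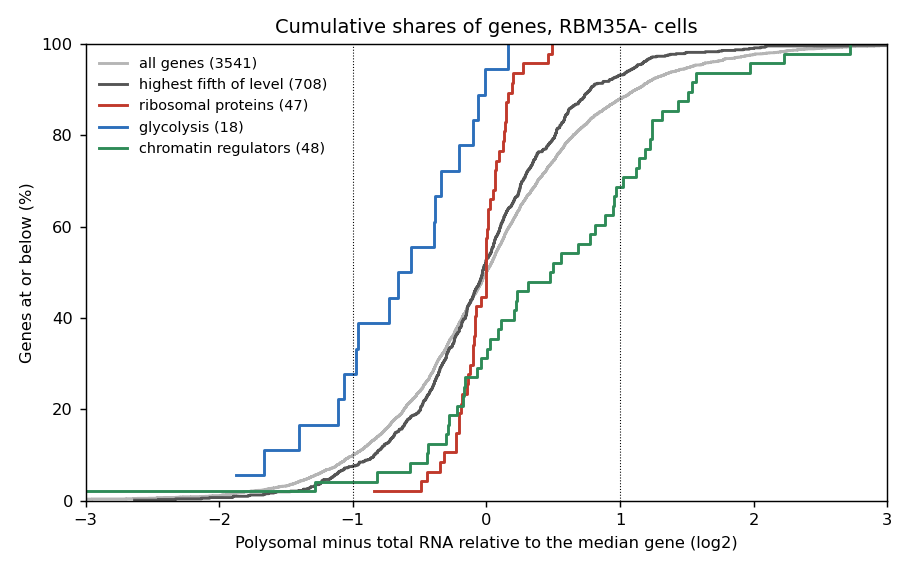
Cumulative share of genes in percent by relative difference (log2) in RBM35A- cells, for all 3541 genes, the 708 genes in the highest quintile of level, and 3 gene lists, with dotted lines at 2-fold. The 47 ribosomal proteins form the steepest curve, between -0.84 and 0.49, while the 18 glycolytic genes lie to the left of all genes and the 48 chromatin regulators to the right.

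The citric acid cycle had a similar median, -0.62 (-0.44 in RBM35A+ cells), with 12 of 16 genes below the median but only 1 of them 2-fold lower. Among measured genes DLD, CS and GOT2 had -0.88, -0.87 and -0.82. OGDH, the E1 subunit of the oxoglutarate dehydrogenase complex, went the other way, at 9.21 in polysomal and 7.39 in total RNA (1.72 in both states).

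The proteasome, chaperones and cytoskeleton also lay low. Of 30 proteasome genes 26 were below the median, with a list median of -0.55. In RBM35A- cells 9 were 2-fold lower (30%, against 9.91% of all genes), and in RBM35A+ cells 4. PSMD5 (-3.01), PSMA3 (-1.66) and PSMB3 (-1.37) were lowest, and PSMD3 (0.50) and PSMD2 (0.10), subunits of the regulatory particle, were among the highest. Of 30 cytosolic chaperones 22 were below the median and 7 were 2-fold lower (23.3%), led by the HSP70 partners DNAJB1 (-1.87) and DNAJA1 (-1.81) and the HSP70 relative HSPA4 (-1.87). The other probe set of DNAJA1 gave -1.66. The prefoldin subunits PFDN5 and PFDN1, which hand actin and tubulin to their chaperonin, had 0.72 and 0.58. Of 41 genes of the actin, tubulin and keratin cytoskeleton 29 were below the median and 7 were 2-fold lower (17.1%), among them ARPC4 (-1.57), KRT19 (-1.33) and MSN (-1.32). ARPC2, of the same actin-nucleating complex as ARPC4, had 0.95, and the other probe set of ARPC4 gave -0.21. TUBB, a beta-tubulin, was at 14.41 and 15.36 (-1.06). The beta-actin controls of the same arrays differed by -4.51 at the 5′ end, beyond any of these genes, and by -0.30 at the 3′ end.

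Genes of the dividing cell lay below the median more often than above it, with members far to either side. DNA replication had 22 of 31 genes below and a list median of -0.53, with 9 genes 2-fold lower (29.0%; 6 genes in RBM35A+ cells) and 3 higher (9.68%). TYMS, thymidylate synthase, was at 8.65 and 10.36 (-1.81), but -0.16 by its other probe set, and TK1, thymidine kinase, at 8.61 and 10.13 (-1.63). POLE, the catalytic subunit of DNA polymerase epsilon, was at 8.86 and 6.10, a relative difference of 2.66. The mean over all its probe sets gave -0.026, but the others were under 5 on both arrays and measure no difference. The ribonucleotide reductase subunits went opposite ways, with RRM1 at 1.03 and RRM2 at a bound of -2.46. Among 34 mitosis genes 23 were below the median, 6 were 2-fold lower (17.6%) and 4 higher (11.8%), with a list median of -0.35 and -0.13 in RBM35A+ cells. The lowest were CCNA2 (-1.95), CDC20 (-1.90) and KIF11 (-1.68), and the highest KIF14 (1.47), ESPL1 (1.18) and NUMA1 (1.08). The polyamine genes had 7 of 10 members below the median and 3 of them 2-fold lower. AMD1, whose messenger holds a regulatory upstream reading frame, was at 7.21 and 9.57 (-2.47, and -3.27 to -1.09 by 3 other probe sets), and AZIN1, the antizyme inhibitor, had -1.61.

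Chromatin regulators stood highest among the larger lists. Of 48 genes 33 were above the median, 15 were 2-fold higher (31.3%, against 12% of all genes) and 2 lower, with a list median of 0.49 and 0.35 in RBM35A+ cells. The median level of this list was 7.33. In the quintile of level that holds it, 6.97 to 8.12, 16.2% of genes were 2-fold higher and 10.3% lower. BPTF, the reader subunit of the NURF remodeller, was at 9.41 in polysomal and 6.59 in total RNA (2.72). CHD3, of the NuRD complex, was at 9.39 and 7.06 (2.23). BRD3, a bromodomain reader of acetylated histones, had 1.57, but -0.77 by its other probe set. SMARCA5 (-1.28) and RBBP4 were the 2 genes lower. Of 25 ZNF zinc finger genes 21 were above the median and 7 were 2-fold higher, led by ZNF44 at 8.96 and 6.16 (2.69). Their levels were low, with a list median of 5.68, and 8 of them had a value at the floor. A gene at the floor in total RNA entered only through its polysomal value, which fixes its side, so these counts describe the genes and support nothing further. Of the chromatin regulators 9 also had a value at the floor.

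Of 27 nucleoporins and karyopherins 7 were 2-fold higher (25.9%) and none was lower, though the list median was 0.05. TNPO3, the import receptor of splicing factors, was at 11.27 and 9.11 (2.05, and 0.33 by its other probe set), TPR, of the nuclear basket, had 1.72 and IPO13 1.28. Among 72 splicing factors and hnRNPs 10 were higher (13.9%) and 8 lower (11.1%), shares near those of all genes, and the list median was 0.07. SFPQ had 2.33 by its brightest probe set and -0.95 to 0.80 by 3 others, and CLK1, a kinase of SR proteins, had 2.09, with its other probe set also past 2-fold. SRSF3, an SR protein, was at 10.34 and 12.37 (-2.13), and -0.82 by its other probe set. Of 33 genes of mRNA decay and repression 6 were higher (18.2%) and 3 lower (9.09%), with a list median of 0.10. UPF1, the helicase of nonsense-mediated decay, was at 8.51 and 6.54 (1.87), and LARP1, the TOP-binding repressor, at 11.12 and 9.15 (1.86). The 3 lowest, named for that, were CAPRIN1 (-2.06), G3BP1 (-1.78) and G3BP2 (-1.61), proteins of stress granules.

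Signalling genes of the MAP kinase, PI3 kinase and mTOR pathways had 26 of 37 genes above the median and a list median of 0.25, while their shares at 2-fold, 4 genes higher (10.8%) and 3 lower (8.11%), were near those of all genes. GSK3B had 1.64 and 1.63 by its 2 probe sets. MAP2K1, which activates the ERK kinases, was at 6.61 and 8.81 (-2.31), and -0.77 by its other probe set. RPS6KA3 had 1.23 and -1.96 by its 2 probe sets, so its direction is not settled.

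Messengers translated at the endoplasmic reticulum had list medians near that of all genes. Secreted proteins of gut and liver epithelium had a list median of -0.05, with 7 of 29 genes 2-fold higher (24.1%) and 3 lower (10.3%). Beside the mucins, LAMA5, a laminin chain, was at 8.19 and 6.22 (1.86), while CST3, the protease inhibitor cystatin C, was at 5.76 and 7.23 (-1.57). For genes of translocation, folding and glycosylation in that compartment the list median was -0.15, with 22 of 34 genes below the median, 4 of them 2-fold lower (11.8%), and none 2-fold higher. SRPRA, the receptor of the signal recognition particle, had -1.39, and MLEC and SEC61B had 0.56 and 0.55. Among 40 integrins, adhesion proteins and growth factor receptors 3 were higher and 3 lower (7.5% each), with a list median of 0.01. SORL1, a sorting receptor, was at 11.28 and 9.21 (1.97, and 0.41 by its other probe set), and BSG, basigin, at 11.62 and 12.81 (-1.29). Of 45 solute carriers and pumps 3 were higher (6.67%), led by SLC43A1, an amino acid transporter (2.72), and 6 were lower (13.3%), led by SLC39A7, a zinc transporter, with -1.48.

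RAB, ARF and vesicle coat genes had a list median of -0.30, with 10 of 53 genes 2-fold lower (18.9%) and 3 higher (5.66%). RAB5C (-2.53) and RAB14 (-2.11), of endosomes, were lowest, and GOSR1 (1.77), a Golgi SNARE, was highest. Sterol and fatty acid synthesis had 4 of 21 genes lower (19%) and none higher, with SCD, the stearoyl desaturase, at 5.21 and 7.08 (-1.97) and HMGCS1 at -1.48. FASN, fatty acid synthase, had 0.62.

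The transcripts known for control through iron were few. FTL, ferritin light chain, was at 13.80 and 14.93 (-1.23, and -1.16 in RBM35A+ cells). Its leader holds an iron-response element, by which iron regulatory proteins block initiation. TFRC, the transferrin receptor, whose elements lie at the other end of the messenger and act on stability, was at 10.21 and 11.06 (-0.96) by the probe set of the gene. Its control probe sets were under 5 in polysomal RNA and at 6.16 to 8.55 in total RNA. SLC11A2, an iron transporter, had 0.40. With 3 genes analysed of 5 on the array, the list median of -0.96 describes these genes only.

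Metallothioneins, small cysteine-rich proteins that bind zinc and copper, were all above the median, 7 of 7, with 3 at 2-fold and a list median of 0.76 (6 and 1.15 in RBM35A+ cells). MT1E was at 14.37 in polysomal and 13.13 in total RNA (1.13), MT1X at 9.15 and 7.84 (1.20) and MT1B at 11.04 and 9.82 (1.12). The lowest was MT3 with 0.41. These genes are near-identical copies, their probe sets can read each other's transcripts, and their values are not separate observations.

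In the upstream reading frame and ATF4 list, DDIT3, the factor CHOP, was at 8.31 and 6.30 (1.90, and 2.37 by its other probe set), DDIT4 had 1.54 and ATF4 0.70. PHGDH, of serine synthesis, was at 11.76 and 13.23 (-1.57). The list of 20 had 3 genes higher (15%) and 2 lower (10%), shares near those of all genes, with a median of 0.06. Of 24 immediate early and AU-rich transcripts 5 were lower (20.8%) and 1 higher (4.17%). After PIM1 the lowest were PHLDA1 (-1.98) and ZFP36L1 (-1.83), and KLF6, a zinc finger factor, was at 9.78 and 7.14 (2.54). In the interferon and MHC class I list B2M, the light chain of class I molecules, had -2.33 by its brightest probe set and -0.35 and -0.10 by 2 others.

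**Figure D5:**
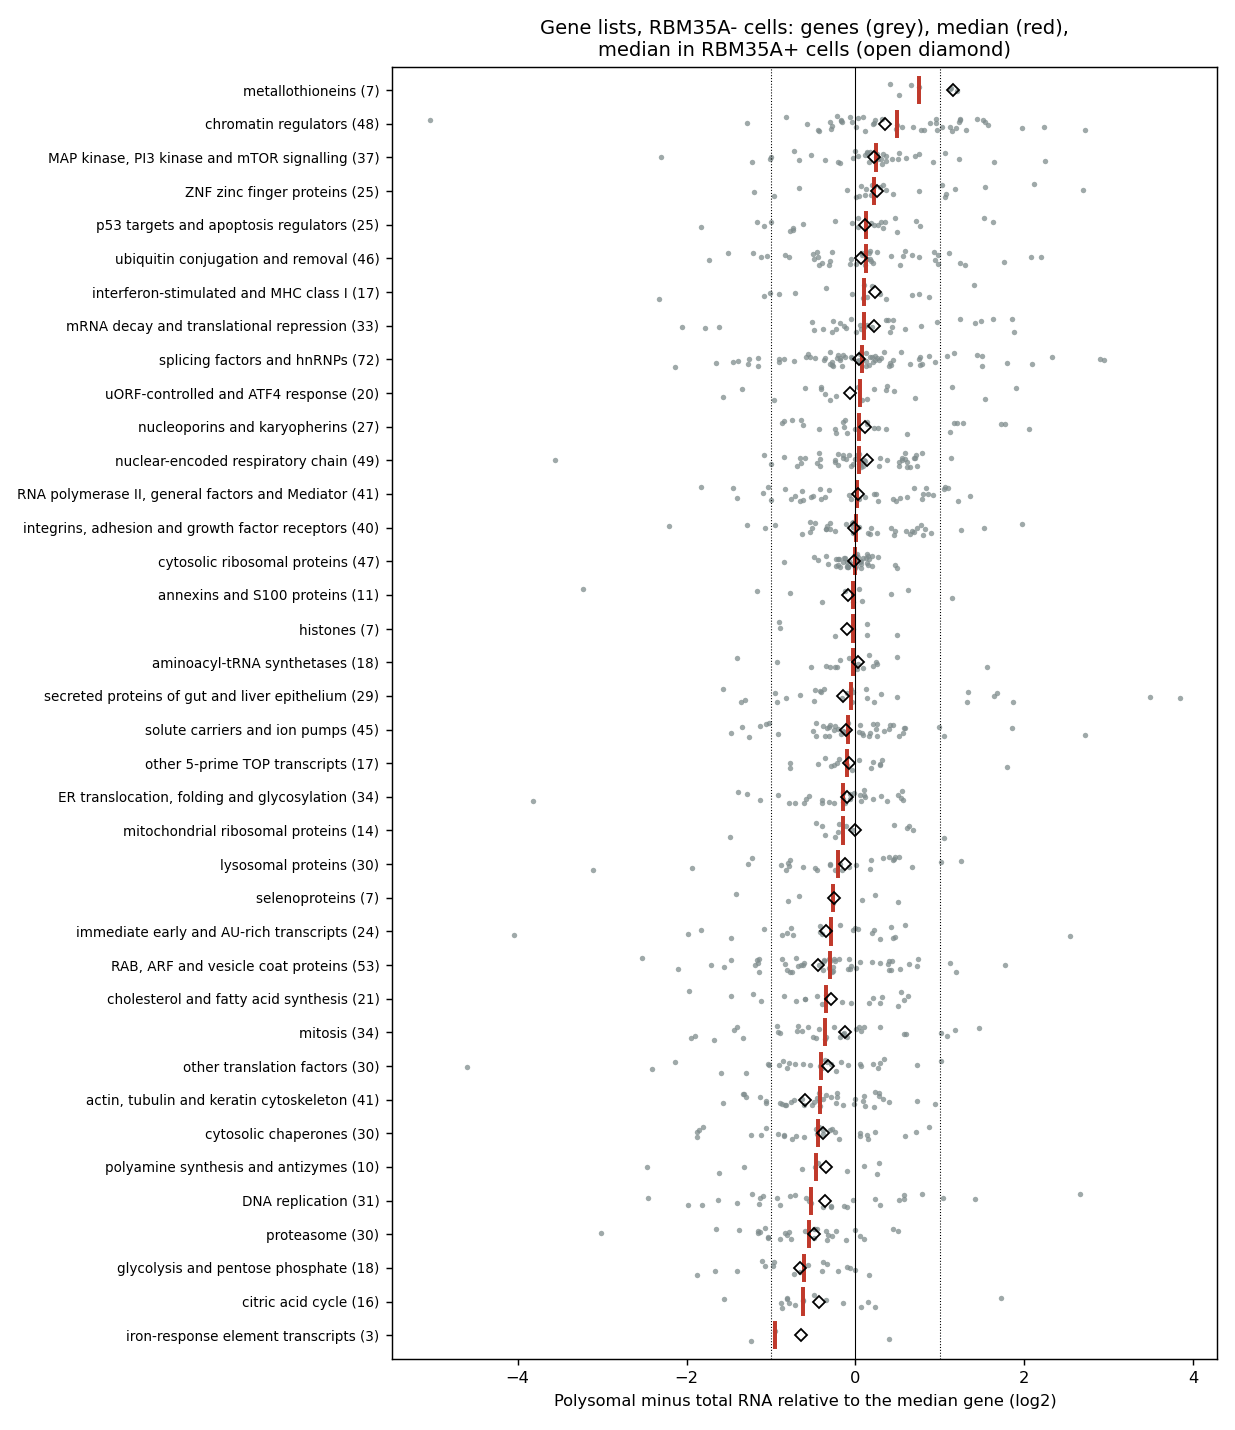
Relative difference of every analysed gene (grey) of the 38 lists with at least 3 analysed genes, ordered by their median in RBM35A- cells (red bar), with the median in RBM35A+ cells as an open diamond and dotted lines at 2-fold. List medians run from -0.96 to 0.76, and the points of the ribosomal proteins lie closest together.

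The share of genes at 2-fold varied with the level of the gene. Next to the lowest quintile of mean level, in genes at 5.79 to 6.97, 19.9% of genes were 2-fold higher and 12.6% lower, and in the highest quintile 6.78% and 7.63%. The lowest quintile, near the floor, had 5.92% and 8.04%. Genes with a longer span in the RefSeq annotation were more often higher, from 8.04% in the shortest quintile to 15.0% in the longest, while the rank correlation of span with the relative difference across genes was 0.015. Genes whose probe set numbers on the array were below 3000 had a median of -0.17 with 10.7% higher and 18.3% lower (458 genes), against 0.02 with 12.2% and 8.66% for the other 3083.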

How the data were processed

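The deposited values are log2 values that the authors made with GCRMA, per the submitters' processing notes, with its version not given in the sources used here. Sorted values of the arrays of a fraction agreed within 6.61e-06 while fractions differed by up to 0.227, so each fraction had been quantile normalized apart. Of 12626 probe sets, 67 controls, 1070 with no symbol and 546 with several were left out. Of the rest, 10934 were matched by gene ID to RefSeq symbols (GRCh38.p14) and 9 kept the array's symbol. A gene was read by the brightest of its probe sets (mean of the 4 arrays), and values under 5 were raised to 5. Genes were counted at 2-fold after subtracting the median. Named genes were the 12 highest and 12 lowest, the 8 highest and 8 lowest bounds, the 12 brightest, and in each of 39 lists the 3 highest and 3 lowest measured members. The comparison, members and lists were chosen with earlier results of these data known. Scripts used Python 3.11.15, pandas 2.3.3 and statsmodels 0.14.6 (lowess), and were tested on simulated data. Each group had 1 array, which limits the precision. Other floors, gene values, centrings and normalizations were tried, and the RBM35A+ pair of arrays was set beside them.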

Additional observations from a re-analysis of the deposited data

Results flagged for a closer look

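The control probe set for the 5′ end of 18S ribosomal RNA, which the gene comparisons do not use, stood at 11.57 on the array of total RNA from RBM35A+ cells and at 2.22 on the other 3 arrays, which include both arrays compared here. The probe sets for the middle and 3′ end of the same RNA were under 5 on all 4 arrays.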

How the results depend on the processing

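The 10 alternatives include the RBM35A+ pair, which is other arrays and cells and not a change of processing. Under the 10 alternatives, the number of genes 2-fold higher ran from 331 (floor of 6) to 510 (floor of 4) around 425. That of genes 2-fold lower ran from 266 to 437 around 351. Without centring they were 495 and 284. Of the medians of the lists under these alternatives, 351 moved by less than the error of a list's members, 28 by more, and none of those beyond that error changed sign; medians within it, such as that of the ribosomal proteins, have no direction. The RBM35A+ pair gave 8 of the 28 list medians that moved by more. Of the named genes' differences, 94 moved by more than the error of a probe set and 7 called ones changed sign. With the mean of all probe sets HLA-F came to 0.033, POLE to -0.026 and RPS6KA3 to -0.73. The mean for POLE takes in probe sets that were under 5 on both arrays. Without probe sets of shared sequence CLTB came to -0.053, DHPS to 0.21, E2F4 to 0.082 and SFPQ to -0.53. Medians by protein length were not run, since no protein table was used here, and the span of the locus took their place. This, the split by probe set number and the use of other probe sets were chosen after seeing the data. No paired analysis was possible, since each group had 1 array and the labels carry no replicate numbers. The arrays of the RBM35A states are set side by side and were not fitted together. The number of arrays limits all values: a difference between cultures, extractions or hybridizations cannot be told from one between fractions.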

Other observations

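The 49 genes of the respiratory chain encoded in the nucleus had a list median of 0.04, with 1 gene 2-fold higher and 3 lower (4 and 1 in RBM35A+ cells), below the shares of all genes. NDUFC1, a small subunit of complex I, was at 13.45 in polysomal and 12.22 in total RNA, a relative difference of 1.13. ATP5ME and COX8A, small subunits of ATP synthase and cytochrome oxidase, had 0.78 and 0.73. Beside ATP5F1A the lowest measured was ATP5F1C (-1.09), the gamma subunit of ATP synthase. Of 14 mitochondrial ribosomal proteins 1 was higher, MRPL23 (1.05), and 1 lower, MRPL28 (-1.49), whose other probe set gave 0.21.

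Selenoproteins, which recode a stop codon, ran from TXNRD1, thioredoxin reductase, at 8.87 and 10.18 (-1.42), to SELENOW at 11.75 and 11.13 (0.51). Of 30 lysosomal genes 4 were 2-fold lower (13.3%) and 2 higher (6.67%), with LIPA, the acid lipase, at -1.27 and SGSH, sulfamidase, at 1.25. TUG1, a long non-coding RNA, was at 8.85 in polysomal and 7.57 in total RNA, a relative difference of 1.18 and 1.38 in RBM35A+ cells, so an RNA with no known large reading frame was among the 2-fold higher ones.

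Probe sets of a gene disagreed by a median range of 0.637 and by 2 or more in 24 genes, the largest being AP1G2 with 3.87. The following were chosen after their values were seen. MYC was at 7.16 and 7.52 by the probe set with the smallest relative difference (-0.46), while the others gave -1.47, -3.25 and a bound of -2.98. ITGA6, an integrin of epithelium, was at 10.75 and 10.89 by its brightest probe set (-0.24), at 7.95 and 9.59 by another (-1.74), and at 5.07 and 8.69 by the last (-3.72). In RBM35A+ cells the same order was seen for ITGA6, with -0.45, -3.08 and a bound of -3.93.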
